A study of Homo sapiens with 36 samples.

Results

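Small nucleolar RNA host genes are genes whose introns carry small nucleolar RNAs (snoRNAs). The members described here are the rows of the deposited count table whose Ensembl identifier maps to a symbol made of SNHG and a number, or to GAS5, ZFAS1, EPB41L4A-AS1 or DANCR. By this rule 32 of the 74628 gene rows were members, and 31 of them passed the filter on low counts, which left 27553 genes to be tested. The member that did not pass was SNHG18, with 8 counts in all samples together.

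The cells were Jurkat, an established human line from a T-cell leukaemia, and in all groups they stably expressed dCas9-VP64, a nuclease-dead Cas9 fused to a transcriptional activator, and carried the mCherry marker. A guide RNA against RELA (sgRELA) or a guide named as non-targeting (sgControl) was delivered with a lentiviral vector, followed by 3 days of puromycin, and cells were harvested on day 5, 6 or 7. Every combination of guide and day, 6 in all, had 3 replicates, which the labels call biological and attribute to transductions in triplicate. Each RNA gave 2 RamDA-seq libraries from 100 pg, whose counts were added. The p-values therefore measure the spread between transductions together with the noise of the libraries. RamDA-seq is a total-RNA method, so RNA with and without a poly(A) tail can be counted. Each guide name stands for 1 guide as far as the labels say, no untransduced cells were analysed here, and the day of harvest and anything else that differed between harvests cannot be told apart.

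The spliced product of such a host is usually a long non-coding RNA, while the intron releases the snoRNA after splicing. Box C/D snoRNAs direct ribose methylation and box H/ACA snoRNAs direct pseudouridylation of ribosomal RNA, and small Cajal body RNAs do the same for spliceosomal RNAs. Many hosts share with ribosomal protein genes a 5′ terminal oligopyrimidine (TOP) start, a run of C and T at the first transcribed base through which growth signals control translation. Spliced host RNAs are also known substrates of nonsense-mediated decay (NMD), so that their level depends on translation as well as on transcription. GAS5 takes its name from its accumulation in growth-arrested cells.

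The members lay on 15 chromosomes, and 30 of the 32 had at least 1 snoRNA or small Cajal body RNA gene within their RefSeq interval on GRCh38.p14. These were box C/D genes in 13 members, box H/ACA genes in 11, both kinds in 2 (GAS5 and SNHG12) and small Cajal body RNA genes in 4 (SNHG10, SNHG20, SNHG21 and SNHG22). None was found in SNHG27 and SNHG28. SNHG14, on chromosome 15, held 83 box C/D genes in an interval from 24823608 to 25419462, GAS5 held 11 and SNHG1 held 8, while DANCR, EPB41L4A-AS1 and SNHG15 each held 1 box H/ACA gene.

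Because the TOP start is the sequence feature that the hosts are best known for, the bases around the annotated start are shown for ZFAS1 and for each member called between days that the RefSeq promoter table holds, with and without a tract. Each window runs from 30 bases before the start to 20 bases from it onward, 50 bases in all, 5′ to 3′ on the transcribed strand, from that table's build GRCh38.p14. Capitals mark a tract of a C followed by at least 4 further C or T letters that begins within 5 bases of the start, searched on the transcribed strand only.
SNHG4, chr5:139274071-139274120, plus strand: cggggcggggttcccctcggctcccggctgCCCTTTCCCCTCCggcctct
SNHG16, chr17:76557734-76557783, plus strand: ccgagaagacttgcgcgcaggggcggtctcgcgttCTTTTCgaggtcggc
DANCR, chr4:52712364-52712413, plus strand: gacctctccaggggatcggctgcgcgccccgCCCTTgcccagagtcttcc
SNHG17, chr20:38435309-38435358, minus strand: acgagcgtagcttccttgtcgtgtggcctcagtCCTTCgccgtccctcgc
SNHG5, chr6:85678714-85678763, minus strand: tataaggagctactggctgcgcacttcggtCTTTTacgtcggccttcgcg
SNHG32, chr6:31834886-31834935, plus strand: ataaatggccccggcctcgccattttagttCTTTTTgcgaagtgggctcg
ZFAS1, chr20:49278612-49278661, plus strand: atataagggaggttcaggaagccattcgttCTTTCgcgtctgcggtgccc
SNHG7, chr9:136728165-136728214, minus strand: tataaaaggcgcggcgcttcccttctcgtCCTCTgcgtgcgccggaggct
SNHG3, chr1:28505913-28505962, plus strand: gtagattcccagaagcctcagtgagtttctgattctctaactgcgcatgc
GAS5, chr1:173869026-173869075, minus strand: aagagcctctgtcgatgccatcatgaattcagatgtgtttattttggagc
SNHG14, chr15:24823578-24823627, plus strand: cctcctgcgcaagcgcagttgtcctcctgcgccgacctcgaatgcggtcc
SNHG29, chr17:16438957-16439006, plus strand: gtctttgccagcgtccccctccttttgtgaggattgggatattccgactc
SNHG26, chr7:22854210-22854259, plus strand: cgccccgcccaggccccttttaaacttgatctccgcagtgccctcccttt
SNHG20, chr17:77088613-77088662, plus strand: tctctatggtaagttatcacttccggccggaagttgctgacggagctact
EPB41L4A-AS1, chr5:112160496-112160545, plus strand: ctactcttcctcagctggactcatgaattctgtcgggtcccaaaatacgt
SNHG27, chr4:131764808-131764857, plus strand: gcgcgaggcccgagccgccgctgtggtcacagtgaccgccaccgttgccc

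A tract was found at 13 of the 28 members in that table (46.4%), at 5749 of all 27305 promoters (21.05%) and at 50 of 64 ribosomal protein gene promoters (78.1%). For the 8 members shown without capitals, this says only that such a run is not at the start that RefSeq gives.

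The 18 RNA samples held 18769530 to 29503934 counts each, from libraries of 7586205 to 16124473 counts. Members took between 0.201% and 0.249% of the counts of an RNA sample. RELA served as the check of the labels and lay between 119.8 and 318.5 CPM (counts scaled to a common library total after TMM normalization) in the 9 sgRELA samples and between 20.2 and 39.3 CPM in the 9 sgControl samples. All 12 T-lymphocyte markers had at least 521 counts in every RNA sample, and of 12 markers of other cell types EPCAM and HBB were at 0 in every one, 7 were at 0 in at least 1 sample and reached at most 58 counts, and 3 were present in every sample. These were PECAM1 (69.1 to 93.3 CPM), CD79A (16.4 to 62.6 CPM) and COL1A1 (1.95 to 10.3 CPM). CD79A was higher in sgRELA in the average over days, by 1.496 on the log2 scale (adjusted p = 3.929e-13). Of the 12 T-lymphocyte markers, 1 was called higher in sgRELA in that average and 1 on day 6, with none lower. Of all genes, 0.388% and 0.214% were called in these comparisons. Levels are not compared between genes, because the counts are not scaled to gene length. Mitochondrial genes took 8.33% to 9.87% of counts on day 6, against 7.43% to 9.29% on day 5 and 7.41% to 7.85% on day 7, and the totals were 18769530 to 22147753 counts on day 6, against 21943451 to 29503934 on day 5 and 24051818 to 26147414 on day 7. Between day 5 and day 7, 6 of the 12 T-lymphocyte markers were called higher in each guide and 1 lower in sgControl. The part of these differences in the results below was not tested. Since these are bulk samples of a dividing line, fewer cells of a given state and less RNA per cell cannot be told apart.

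The first question was whether the members differed between harvest days within each guide. The members called between day 6 and day 7 in both guides included SNHG3, SNHG4, DANCR, SNHG16, SNHG15, SNHG17 and SNHG5, which rose, and SNHG32, SNHG29 and SNHG14, which fell. With the first library of each RNA alone, SNHG14 and SNHG5 lost this call in sgControl, and DANCR, SNHG29 and SNHG5 lost it in sgRELA. SNHG3 and SNHG4 were 2.29-fold to 2.75-fold higher on day 7 than on day 5, and SNHG32 fell 1.86-fold and 2.02-fold from day 6 to day 7. Called here means an adjusted p under 0.05 (edgeR's quasi-likelihood test, Benjamini-Hochberg adjustment over all 27553 genes). In all, 17 of the 31 tested members were called in at least 1 of the 6 day comparisons, as were 28.2% of all genes, and 14 in none.

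From day 6 to day 7 in sgControl, 11 of the 31 tested members were called (35.5%), where 14.6% of all genes tested were. Of these, 7 members were higher (22.6%, against 8.25% of all genes) and 4 lower (12.9%, against 6.31%). The same step in sgRELA gave 12 calls (38.7%, against 12.2% of all genes), 8 higher (25.8%, against 7.21%) and 4 lower (12.9%, against 5.02%). Called in the same direction in both guides were 7 members higher (5.78% of all genes were) and 3 lower (2.95%), and no member was called in opposite directions. The median log2 fold change of the tested members was 0.14 in sgControl and 0.29 in sgRELA, where that of all genes was -0.07 and -0.06. With the first library of each RNA alone, the sgRELA count was 7, where 3.97% of all genes were called.

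From day 5 to day 7 in sgControl, 12 members were called (38.7%, against 13% of all genes), 7 of them higher (22.6%, against 6.65%) and 5 lower (16.1%, against 6.36%). In sgRELA there were also 12 (38.7%, against 12.4%), 6 higher (19.4%, against 6.35%) and 6 lower (19.4%, against 6.06%). The direction was shared by 6 members higher (4.39% of all genes were) and 4 lower (3.72%). The median log2 fold change of the members was 0.16 and 0.17, and that of all genes -0.01 in both guides. The count in sgControl dropped to 7 when replicate 3 of sgControl on day 7 was left out, and both counts were 6 with the first library of each RNA alone, where the shares of all genes called also dropped, to 3.39% and 2.77%.

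Between day 5 and day 6 the calls were few. In sgControl 3 members were called (9.68%, against 8.87% of all genes), 1 higher (3.23%, against 3.29%) and 2 lower (6.45%, against 5.58%), shares close to the background. In sgRELA there were 5 (16.1%, against 6.91%), 2 higher (6.45%, against 2.57%) and 3 lower (9.68%, against 4.34%). The sgRELA count was 3 without replicate 2 or replicate 3 of day 5 or replicate 3 of day 6, since SNHG29 and SNHG7 then missed the threshold. All 3 members called in sgControl, namely SNHG14, SNHG15 and SNHG17, were called in the same direction in sgRELA, 1 higher and 2 lower, against 1.31% and 2.99% of all genes. DESeq2 called 6 and 8 members, and the first library of each RNA alone gave 0 in both guides, where 1.78% and 0.811% of all genes were called.

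**Figure D1:**
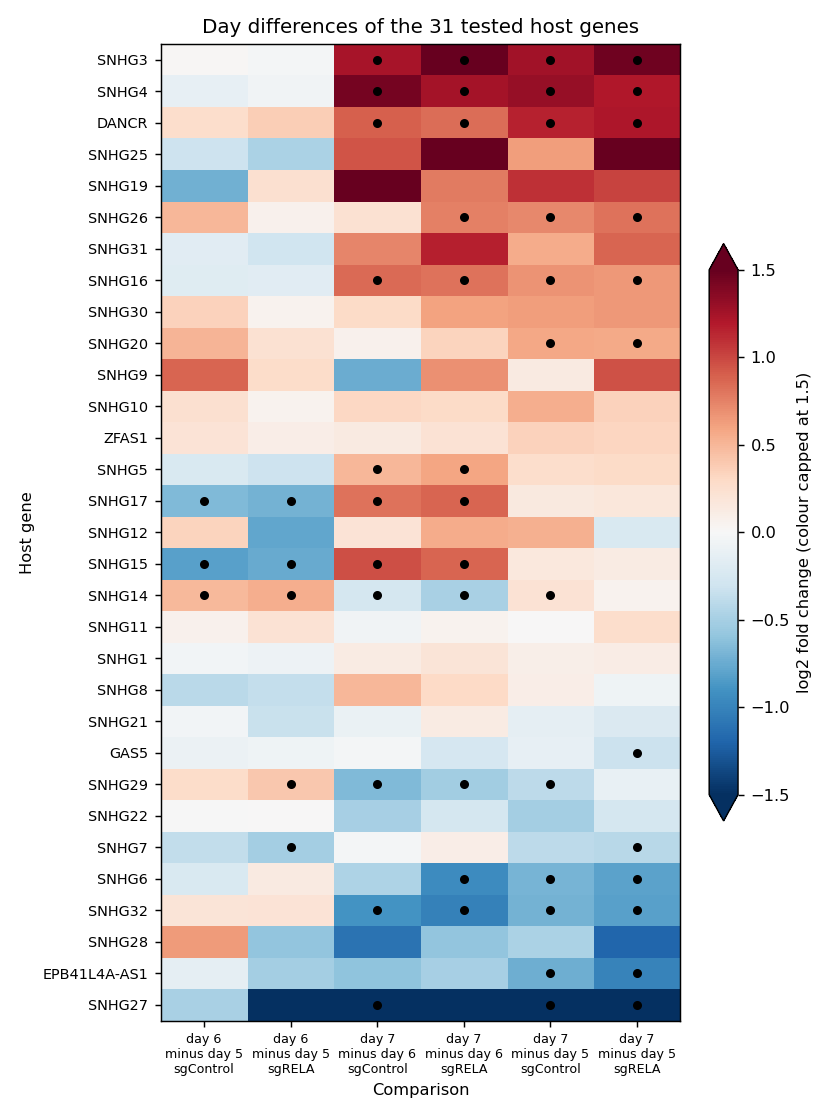
Colour gives the log2 fold change of each of the 31 tested host genes (rows, ordered by their mean day 7 minus day 5 difference) in the 6 day comparisons (columns), capped at 1.5, and a black dot marks a call. SNHG3, SNHG4 and DANCR stand at the top with dots in all 4 comparisons that involve day 7, and most dots lie in the day 7 columns.

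SNHG3, host of the box H/ACA genes SNORA73A and SNORA73B on chromosome 1, rose between day 6 and day 7. In sgControl it measured 42.7, 56.9 and 57.6 CPM on day 5, 62.6, 47.9 and 49.0 on day 6, and 125.7, 125.2 and 125.0 on day 7. In sgRELA it was at 56.7, 50.6 and 43.6 CPM on day 5, 49.8, 52.7 and 45.0 on day 6, and 141.9, 136.0 and 136.7 on day 7. All 6 samples of day 7 lay above all 12 of the earlier days, which overlapped. From day 5 to day 7 the log2 fold change was 1.26 (SE 0.12, adjusted p = 1.675e-08 in edgeR's test) in sgControl, a 2.39-fold difference, and 1.46 (SE 0.13, adjusted p = 9.306e-10) in sgRELA.

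SNHG4, host of SNORA74A and SNORA74D on chromosome 5, behaved likewise. It stood at 54.7, 64.7 and 73.0 CPM on day 5 of sgControl, 55.2, 57.1 and 63.7 on day 6, and 170.6, 147.4 and 157.6 on day 7. The sgRELA samples held 73.0, 64.3 and 67.6 CPM on day 5, 67.4, 64.5 and 65.5 on day 6, and 149.9, 151.9 and 167.7 on day 7. Day 7 did not overlap with the other days in either guide. The step from day 6 to day 7 was 1.43 on the log2 scale (SE 0.11, adjusted p = 2.573e-11) in sgControl, which is 2.702-fold, and 1.25 (SE 0.11, adjusted p = 4.25e-10) in sgRELA.

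DANCR, a long non-coding RNA first described as a differentiation antagonist and the host of 1 box H/ACA gene, was the third member of this kind. Its sgControl samples measured 45.3, 57.5 and 50.8 CPM on day 5, 67.5, 69.2 and 47.6 on day 6, and 117.8, 118.6 and 105.9 on day 7. Its sgRELA samples measured 51.9, 50.4 and 43.9 CPM on day 5, 64.8, 61.0 and 63.3 on day 6, and 116.7, 109.4 and 112.1 on day 7. The day 6 values overlapped with day 5 in sgControl but lay above it in all samples of sgRELA, where the log2 fold change of 0.37 had an adjusted p of 0.06621 and was not called, although DESeq2, a fit of the 2 groups alone and the fit without the 2 libraries with few detected genes called it. By day 7 the difference from day 5 reached 1.16 (SE 0.12, adjusted p = 6.701e-08) in sgControl and 1.21 (SE 0.12, adjusted p = 3.186e-08) in sgRELA, 2.23-fold and 2.31-fold.

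SNHG16, with 3 box C/D genes, rose less. CPM values of sgControl were 74.6, 81.2 and 76.7 on day 5, 78.9, 68.2 and 57.7 on day 6 and 127.3, 115.6 and 126.9 on day 7. In sgRELA they were 82.3, 75.5 and 79.4, then 76.5, 61.4 and 73.5, then 140.9, 113.9 and 116.7. Days 5 and 6 overlapped and day 7 stood above both. The step from day 6 to day 7 was 0.85 on the log2 scale (SE 0.12, adjusted p = 1.744e-06) in sgControl and 0.81 (SE 0.12, adjusted p = 4.531e-06) in sgRELA.

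SNHG26, a box C/D host on chromosome 7, was higher on day 7 than on day 5 in both guides. It was at 21.2, 18.0 and 24.0 CPM on day 5 of sgControl, 31.8, 29.1 and 28.3 on day 6, and 37.1, 30.4 and 36.7 on day 7. The corresponding sgRELA values were 25.7, 20.1 and 20.5, then 25.6, 21.5 and 21.9, then 32.4, 44.4 and 39.9. In sgControl day 6 already lay above day 5 in all samples (log2 fold change 0.50, adjusted p = 0.05028, not called except by DESeq2 and without replicate 3 of day 5), while in sgRELA day 6 overlapped with day 5. The difference between day 7 and day 5 was 0.72 (SE 0.16, adjusted p = 0.002168) in sgControl and 0.82 (SE 0.16, adjusted p = 0.0005877) in sgRELA, and both calls were lost with the first library alone. SNHG20, a small Cajal body RNA host, is given by its means because it fell outside the 12 members listed in full: 18.5 ± 2.9, 26.5 ± 4.0 and 27.6 ± 4.8 CPM (SD, n = 3) on the 3 days of sgControl and 19.6 ± 3.3, 22.9 ± 3.9 and 28.95 ± 3.1 in sgRELA. Its day 7 minus day 5 difference was called in both guides, at 0.58 and 0.56 on the log2 scale (adjusted p = 0.03539 and 0.03941). The sgControl call of SNHG20 was lost without replicate 1 or 3 of day 5 or replicate 2 or 3 of day 7. Its sgRELA call was lost without replicate 2 or 3 of either day, under a replicate block and with the second library alone. Both were lost with the first library alone.

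**Figure D2:**
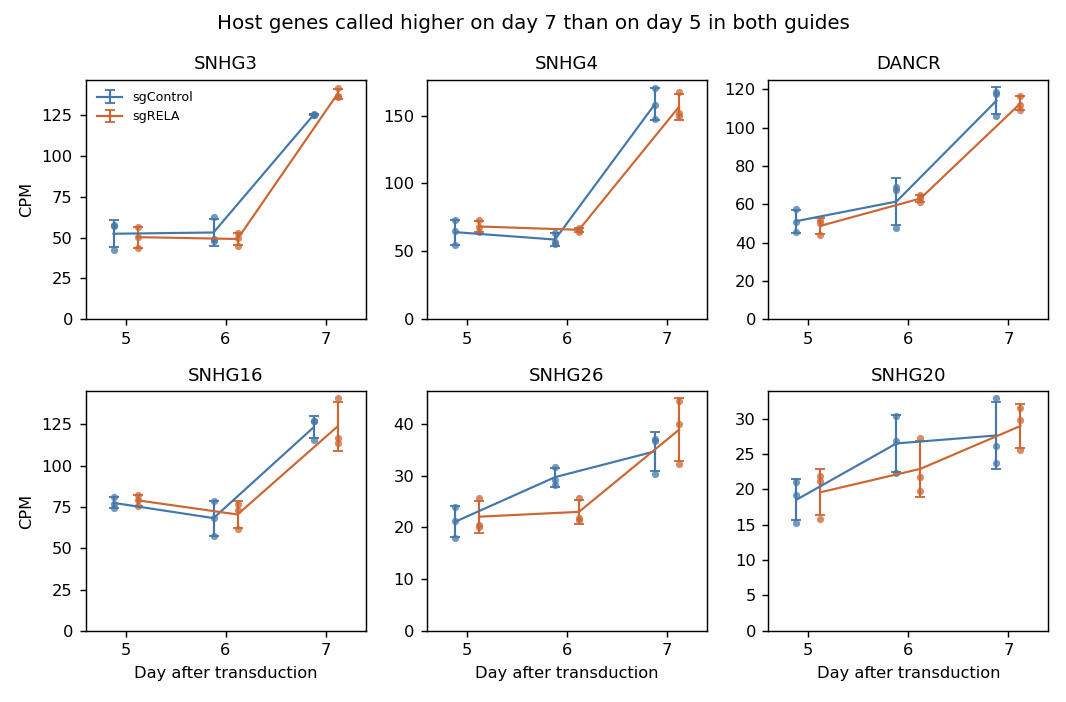
CPM of the 6 host genes called higher on day 7 than on day 5 in both guides (y axes start at 0), by day after transduction. Points are the 3 RNA samples of a group, lines join group means and bars are SD. For SNHG3 and SNHG4 every day 7 point lies above every earlier point, and the blue (sgControl) and orange (sgRELA) lines follow each other.

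SNHG15 and SNHG17 fell on day 6 and overlapped with their day 5 level again on day 7, and SNHG5 shared the rise to day 7. SNHG15, host of 1 box H/ACA gene on chromosome 7, measured 65.2, 82.8 and 74.1 CPM on day 5 of sgControl, 47.9, 31.6 and 47.3 on day 6, and 77.9, 86.6 and 84.2 on day 7. In sgRELA the values were 67.1, 80.9 and 77.1, then 47.0, 44.4 and 42.3, then 81.7, 85.3 and 77.8. Day 6 was below both other days in every sample, and days 5 and 7 overlapped. The fall to day 6 was -0.81 on the log2 scale (SE 0.13, adjusted p = 0.0001005) in sgControl and -0.75 (SE 0.13, adjusted p = 0.0002834) in sgRELA, and the rise to day 7 was 0.97 (SE 0.13, adjusted p = 1.744e-06) and 0.87 (SE 0.13, adjusted p = 1.217e-05).

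SNHG17, which holds 4 box H/ACA genes on chromosome 20, followed the same course. Its sgControl values were 150.1, 207.3 and 174.3 CPM, then 131.4, 100.1 and 104.0, then 187.2, 193.2 and 210.1. Its sgRELA values were 180.4, 165.8 and 198.0 CPM, then 106.1, 112.5 and 114.1, then 186.6, 230.0 and 195.0. The groups of day 6 and day 5 did not overlap, nor did those of day 6 and day 7. The fall was -0.66 (SE 0.11, adjusted p = 0.000173) in sgControl and -0.71 (SE 0.11, adjusted p = 8.165e-05) in sgRELA, and the rise was 0.82 and 0.88 (SE 0.11 in both, adjusted p = 2.427e-06 and 8.654e-07). For SNHG17 the day 7 minus day 5 difference was 0.15 with a 95% interval from -0.09 to 0.39 in sgControl and 0.17 with an interval from -0.07 to 0.41 in sgRELA.

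SNHG5, a box C/D host with a TOP-like start, changed less. It lay at 95.7, 92.8 and 103.1 CPM on day 5 of sgControl, 71.4, 86.1 and 91.1 on day 6, and 124.4, 122.5 and 103.7 on day 7, and at 97.6, 120.2 and 102.7, 74.2, 99.8 and 84.7, and 137.0, 124.0 and 129.4 in sgRELA. Day 7 was above day 6 in all samples of both guides. That step was 0.50 (SE 0.12, adjusted p = 0.002521) in sgControl and 0.59 (SE 0.12, adjusted p = 0.0004194) in sgRELA, while the differences between day 6 and day 5, -0.23 and -0.31, were not called. DESeq2, the second library alone and the fit without replicate 2 of day 6 called the sgRELA one. The rise to day 7 was lost with the first library alone in both guides and with the second alone in sgControl. The TMM factors of the same samples were 1.02 to 1.08 on day 6, against 0.986 to 1.00 on day 5 and 0.971 to 0.976 on day 7. With DESeq2's size factors the members called between day 5 and day 6 numbered 3 and 5 as before.

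SNHG14 moved the other way on day 6. This very long transcript of the imprinted region around SNRPN and UBE3A carries the SNORD115 and SNORD116 clusters and took 36.7% of all member counts, which also reflects its length. It measured 662.7, 691.4 and 725.3 CPM on day 5 of sgControl, 934.3, 961.6 and 1020 on day 6, and 829.6, 770.0 and 820.2 on day 7. In sgRELA it was at 719.8, 772.1 and 767.7, then 1073, 1115 and 1100, then 791.3, 731.5 and 821.2 CPM. The day 6 samples were above all others of the same guide. The 2 libraries of replicate 1 of sgControl on day 6 were unlike, however, at 636.5 and 1189 CPM. The lower of them lay within the range of the day 5 libraries of sgControl, 585.2 to 757.1 CPM. The rise was 0.49 (SE 0.06, adjusted p = 3.123e-06) in sgControl and 0.54 (SE 0.06, adjusted p = 5.917e-07) in sgRELA, followed by a fall of -0.27 (adjusted p = 0.002193) and -0.49 (adjusted p = 7.025e-07). With the first library alone, the rise was called in neither guide and the fall was not called in sgControl. Day 7 stayed above day 5 in sgControl (0.22, adjusted p = 0.01587) and overlapped with day 5 in sgRELA (0.05, adjusted p = 0.693). The sgControl call was lost with either library alone, without a filter on low counts and without replicate 1 of day 5 or replicate 1 or 3 of day 7.

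SNHG14 took 30.5% to 46.1% of the members' counts in an RNA sample, so their summed level is given with and without it. The sum over all members was 2037 to 2152 CPM on day 5, 2277 to 2417 on day 6 and 2402 to 2484 on day 7. Without SNHG14 it was 1375 to 1426 CPM on day 5, 1284 to 1375 on day 6 and 1632 to 1671 on day 7. The order of days 5 and 6 then changed, with ranges that met at 1375 CPM. Before TMM scaling, the members without SNHG14 took on average 0.1379% of counts on day 5 and 0.1392% on day 6 of sgControl. In sgRELA these shares were 0.1372% and 0.1326%.

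**Figure D3:**
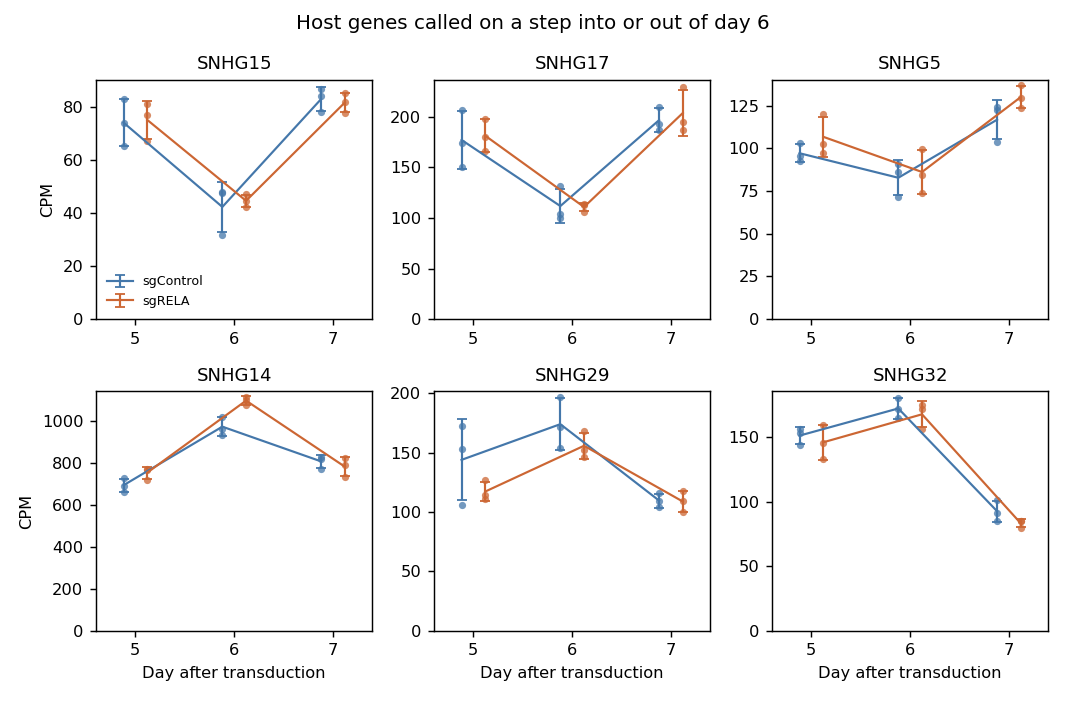
CPM of 6 host genes called on a step into or out of day 6 (y axes start at 0), with points for the 3 RNA samples of a group, lines for group means and bars for SD. SNHG15 and SNHG17 are lowest on day 6, SNHG14 is highest on day 6, and SNHG32 drops on day 7 in both guides.

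Among the members that were lower on day 7, SNHG32, a host of 2 box C/D genes with a TOP-like start on chromosome 6, changed with the smallest p. Its sgControl samples were at 153.3, 144.3 and 156.7 CPM on day 5, 180.7, 164.9 and 171.9 on day 6, and 85.5, 101.6 and 91.2 on day 7. The sgRELA samples measured 160.0, 133.2 and 145.5, then 175.2, 172.1 and 156.6, then 85.1, 85.3 and 79.7. Each day 7 sample was below all samples of days 5 and 6. From day 6 to day 7 the log2 fold change was -0.90 (SE 0.09, adjusted p = 1.308e-08) in sgControl and -1.01 (SE 0.09, adjusted p = 1.523e-09) in sgRELA, which is 1.86-fold and 2.02-fold lower.

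SNHG29, with 3 box C/D genes on chromosome 17, measured 172.9, 152.9 and 106.3 CPM on day 5 of sgControl, 196.9, 171.8 and 153.6 on day 6 and 109.0, 115.9 and 104.2 on day 7. Its sgRELA values were 126.7, 110.8 and 114.5, then 152.6, 146.8 and 168.3, then 100.2, 117.4 and 109.1. Day 7 lay below day 6 in all samples, but overlapped with day 5 in both guides. The step from day 6 to day 7 was -0.67 (SE 0.12, adjusted p = 0.0001876) in sgControl and -0.52 (SE 0.12, adjusted p = 0.003719) in sgRELA. The sgRELA call of this step was lost with the first library alone. In sgControl the day 7 minus day 5 difference of -0.39 was also called (adjusted p = 0.03152) although the groups overlapped. That call was lost without replicate 1 or 2 of day 5 or replicate 1 or 3 of day 7. It was also lost with the second library alone, in a fit of the 2 groups alone and without the 2 libraries with few detected genes. In sgRELA the rise to day 6 of 0.41 was called (adjusted p = 0.03841). This call was lost with the first library alone and without replicate 2 or 3 of day 5 or any replicate of day 6.

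SNHG6, a host of 1 box C/D gene, had few counts, between 140 and 390 per RNA sample. In sgControl it was at 15.4, 13.3 and 16.5 CPM, then 9.37, 15.6 and 13.4, then 9.77, 10.5 and 7.62, and in sgRELA at 14.6, 13.6 and 13.4, then 13.6, 16.4 and 15.6, then 9.93, 8.0 and 5.87. Day 7 was below day 5 in all samples of both guides. The difference was -0.69 (SE 0.23, adjusted p = 0.04129) in sgControl and -0.80 (SE 0.23, adjusted p = 0.01747) in sgRELA, and neither call held in every set with 1 replicate left out: it was lost in sgControl without replicate 1 or 3 of day 5 or any replicate of day 7, and in sgRELA without replicate 1 of day 5 or replicate 2 or 3 of day 7. Both calls were lost with the first library alone, and the sgControl call also with the second alone and without a filter. From day 6 to day 7 SNHG6 was called lower in sgRELA, without overlap (unadjusted p = 0.0003186 in edgeR's test). That call too was lost with the first library alone. In sgControl days 6 and 7 overlapped, and the step was not called.

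EPB41L4A-AS1, transcribed from the strand opposite EPB41L4A and host of 1 box H/ACA gene, was also lower on day 7 than on day 5. Its values in sgControl were 16.1, 11.1 and 18.7 CPM, then 12.1, 16.6 and 13.2, then 9.03, 8.69 and 9.95. In sgRELA they were 20.4, 16.6 and 13.4 CPM, then 8.34, 14.7 and 12.2, then 6.90, 7.51 and 10.7. The day 5 and day 7 samples did not overlap, and day 6 overlapped with day 5 in both guides. The difference was -0.73 (SE 0.25, adjusted p = 0.04853) in sgControl and -1.01 (SE 0.25, adjusted p = 0.005635) in sgRELA. The sgControl call was lost under DESeq2's size factors, under a replicate block and without replicate 1 or 3 of day 5 or any replicate of day 7. With the first library alone the calls of both guides were lost.

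SNHG27, in which no snoRNA gene was found, had 497 counts in all and at most 86 in an RNA sample. It was at 1.62, 3.93 and 1.21 CPM on day 5 of sgControl, 0.294, 1.43 and 3.10 on day 6, and 0.166, 0 and 0.316 on day 7. In sgRELA it was at 2.43, 2.36 and 1.75, then 0.176, 1.61 and 0.314, then 0, 0.244 and 0.168 CPM. Its day 7 minus day 5 difference was called in both guides, with log2 fold changes of -3.75 (SE 1.00, adjusted p = 0.009955) and -3.95 (SE 1.01, adjusted p = 0.007856), whose 95% intervals run from -5.92 to -1.58 and from -6.15 to -1.74. The sgControl call was lost without replicate 2 of day 5 or of day 7 and with either library alone. The sgRELA call was lost with the second library alone.

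SNHG7, the other called member outside the 12, fell from 48.4 ± 4.0 CPM on day 5 to 34.0 ± 1.1 on day 6 of sgRELA (SD, n = 3) and was at 36.4 ± 0.9 on day 7. The day 7 minus day 5 difference of -0.41 had an adjusted p of 0.04282, and in sgControl, with means of 50.2, 39.0 and 38.2 CPM, it was -0.39 with an adjusted p of 0.05362, which DESeq2 called. The sgRELA call of this difference was lost without replicate 2 or 3 of day 5 or any replicate of day 7. It was also lost with either library alone, without a filter, under a replicate block and without the 2 libraries with few detected genes.

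GAS5 and ZFAS1 changed little. GAS5 measured 138.4, 116.6 and 123.8 CPM on day 5 of sgControl, 104.0, 121.9 and 129.4 on day 6, and 114.8, 112.2 and 120.6 on day 7. In sgRELA it was at 125.0, 134.9 and 131.1, then 116.8, 134.0 and 122.8, then 102.1, 107.8 and 104.0 CPM. Days overlapped in sgControl, and in sgRELA day 7 was below both other days. The day 7 minus day 5 difference of GAS5 was -0.32 in sgRELA (SE 0.10, adjusted p = 0.02487), 1.25-fold lower, and lost its call without replicate 2 or 3 of day 5 or any replicate of day 7 of sgRELA, with adjusted p between 0.05134 and 0.0928. That call was also lost without a filter and with the first library alone. DESeq2 and the second library alone also called GAS5 lower on day 7 than on day 6 in sgRELA.

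ZFAS1, host of 3 box C/D genes on the strand opposite ZNFX1, held 45.0, 42.6 and 35.4 CPM on day 5 of sgControl, 51.9, 48.6 and 41.2 on day 6, and 56.0, 46.7 and 53.1 on day 7. The sgRELA values were 37.7, 44.5 and 47.0, then 43.4, 45.9 and 49.1, then 59.1, 50.5 and 51.4. Day 7 was above day 5 in all samples of both guides, by 0.34 (95% interval 0.05 to 0.63, adjusted p = 0.09264) and 0.32 (interval 0.03 to 0.61, adjusted p = 0.125), which the test did not call. DESeq2 called the sgControl difference (adjusted p = 0.04098), and so did edgeR without the 2 libraries with the fewest detected genes among their peers (adjusted p = 0.04742).

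SNHG1, host of 8 box C/D genes and chosen here after its values were seen, was at group means of 132 to 151 CPM on all days and in both guides, and edgeR called no day comparison. In sgRELA its samples of day 7 lay above those of day 6, with a log2 fold change of 0.19 (adjusted p = 0.1522), which DESeq2 called. Its day 7 minus day 5 difference was 0.09 in sgControl (95% interval -0.09 to 0.27) and 0.11 in sgRELA (interval -0.07 to 0.30). The other 12 members called in no day comparison were SNHG8, SNHG9, SNHG10, SNHG11, SNHG12, SNHG19, SNHG21, SNHG22, SNHG25, SNHG28, SNHG30 and SNHG31. Over all samples SNHG11 ranged from 14.6 to 25.6 CPM, SNHG10 from 11.2 to 26.3, SNHG8 from 7.94 to 13.7 and SNHG12 from 5.21 to 14.2. SNHG30 ranged from 4.97 to 12.7 CPM, SNHG21 from 2.01 to 8.69, SNHG31 from 0.960 to 6.42 and SNHG28 from 0.569 to 6.56. Under at least 1 alternative, SNHG8, SNHG10, SNHG12, SNHG19 and SNHG30 were called in a day comparison. SNHG9, SNHG19, SNHG22 and SNHG25 had at most 47 counts in an RNA sample, so that only large differences were detectable at this depth.

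**Figure D4:**
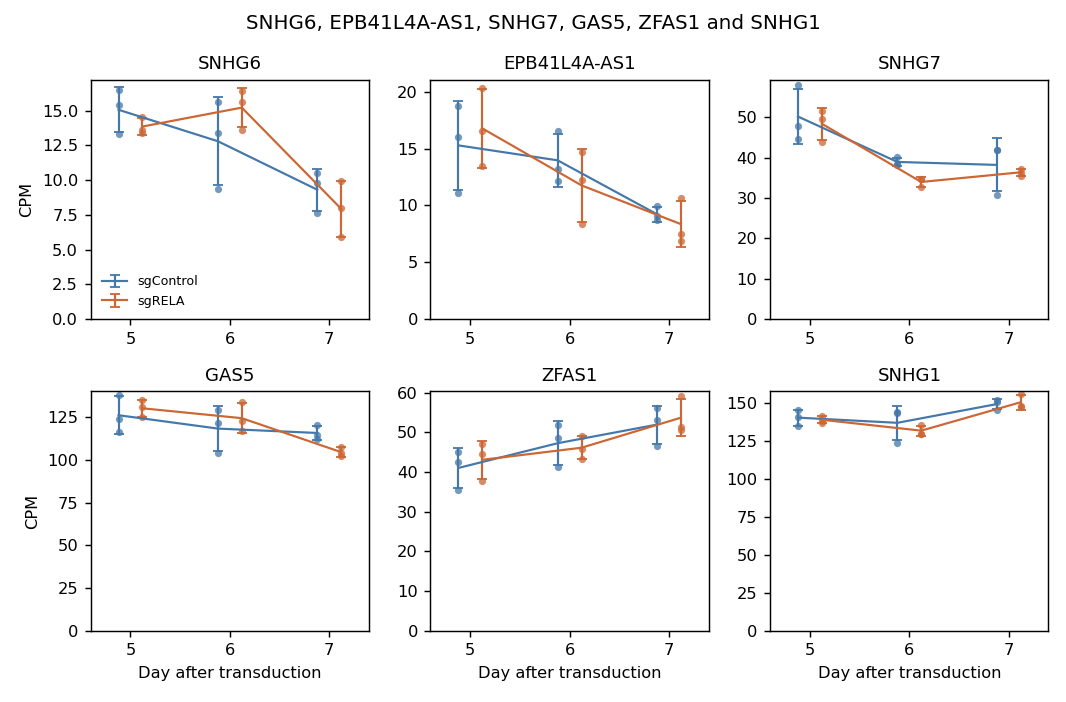
CPM of SNHG6, EPB41L4A-AS1, SNHG7, GAS5, ZFAS1 and SNHG1 by day (y axes start at 0), with points for the 3 RNA samples of a group, lines for group means and bars for SD. SNHG6 and EPB41L4A-AS1 are lower on day 7 than on day 5, and the points of SNHG1 stay between 124 and 157 CPM.

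The members that rose on day 7 were not of 1 class. From day 6 to day 7 in sgControl, 5 of the 11 tested box H/ACA hosts were higher and none lower, and of the 12 tested box C/D hosts 2 were higher and 3 lower, where 8.25% of all genes were higher and 6.31% lower. In sgRELA these counts were 5 and 0 of 11, and 3 and 4 of 12, where 7.21% and 5.02% of all genes were. Of the 12 tested members with a TOP-like tract, 5 were higher and 1 (SNHG32) lower in each guide, and of the 15 without one, 1 was higher and 3 lower in sgControl and 2 were higher and 2 lower in sgRELA. No difference between classes was tested.

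The snoRNAs themselves were seen poorly. Of 147 snoRNA and small Cajal body RNA genes within the members, 61 had a row in the table that could be matched by symbol, 53 of these had 0 counts in every sample and 5 passed the filter. SNORA73A and SNORA73B in SNHG3 and SNORA71B in SNHG17 held 2678, 5295 and 1236 counts over all samples, against 33446 for SNHG3 and 70140 for SNHG17. SNORA73B was at 11.6 to 19.8 CPM on day 5 of sgControl and 11.2 to 12.2 on day 7, and at 9.66 to 13.8 and 10.9 to 13.5 in sgRELA, while its host was 2.39-fold higher on day 7 in sgControl. SNORA73A was at 5.74 to 8.73 CPM on day 5 and 4.22 to 4.76 on day 7 of sgControl, lower without overlap. In sgRELA it was at 5.43 to 6.16 and 5.44 to 7.34 CPM, which overlapped. SNORA71B was at 1.04 to 3.43 CPM on day 5 and 2.74 to 5.59 on day 7 of sgControl, and at 2.11 to 3.89 and 2.52 to 4.20 in sgRELA, overlapping in both. SNORA74D and SNORA74A in SNHG4, with 148 and 117 counts over all samples, were at 0.17 to 0.31 and 0 to 0.61 CPM on day 5 of sgControl and at 0.30 to 0.58 and 0.55 to 1.24 on day 7. In sgRELA they were at 0.081 to 0.28 and 0.040 to 0.081 CPM on day 5 and at 0.25 to 0.85 and 0.081 to 0.51 on day 7. The ranges of both SNHG4 snoRNAs lay higher on day 7 in each guide, with some overlap and at few counts. These levels are a description with no test, and they may hold reads of the host's introns.

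Neighbouring genes bear on the host counts, because the counting rule, its use of strand and its treatment of shared reads are not given in the sources used here. In GENCODE v29, exons of 19 members overlap those of another gene, 7 of them on the same strand and 16 on the opposite strand, so reads of both genes may not be separable. SNHG3 shares exons with RCC1, the exchange factor for Ran, which moved from 108.6 CPM on day 5 to 71.0 on day 6 and 187.8 on day 7 of sgControl (group means). RCC1 fell to day 6 by 0.61 on the log2 scale (adjusted p = 0.0001571) and rose to day 7 by 1.40 (adjusted p = 1.926e-11), whereas SNHG3 differed by 0.02 between days 5 and 6 (adjusted p = 0.9554).

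SNHG4 overlaps SIL1 on the opposite strand and MATR3 on the same one. The MATR3 entry of this overlap was not among the genes tested, so no values are given for it. SIL1, which encodes a co-chaperone of the endoplasmic reticulum, changed against it, by -1.21 from day 6 to day 7 in sgControl (adjusted p = 7.444e-05) and by -0.55 in sgRELA (adjusted p = 0.0803, not called). ZNFX1, opposite ZFAS1, was called lower on day 6 in both guides (-0.32 and -0.39, adjusted p = 0.03911 and 0.01237). Opposite SNHG29, LRRC75A differed by 0.46 and 0.59 between days 6 and 7 where SNHG29 fell, and was called in sgRELA (adjusted p = 0.03931). UBE3A and SNRPN, which overlap SNHG14, were called in no day comparison. The part of these overlaps in the members' values was not tested.

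Other genes of the same pathway are given from lists, and their counts are to be read against the shares of all genes. From day 6 to day 7 these were 8.25% higher and 6.31% lower in sgControl and 7.21% and 5.02% in sgRELA, from day 5 to day 6 they were 3.29% and 5.58%, and 2.57% and 4.34%, and from day 5 to day 7 they were 6.65% and 6.36%, and 6.35% and 6.06%. Of 21 proteins of the snoRNA particles and their assembly, 15 were called higher and none lower from day 6 to day 7 in each guide, with medians of 0.70 and 0.66 on the log2 scale. From day 5 to day 6, 11 of them were lower in sgControl and 8 in sgRELA, with none higher. NOP56, a core protein of box C/D particles, rose by 1.09 from day 6 to day 7 in sgControl (SE 0.08, adjusted p = 8.647e-12) and NOLC1, which carries particles in the nucleolus, by 1.31 (SE 0.09, adjusted p = 5.848e-12). SHQ1, an assembly chaperone of box H/ACA particles, rose by 1.05 and RUVBL1, an ATPase of particle assembly, by 0.97.

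The protein-coding hosts divided. Of 22 ribosomal protein genes with intronic snoRNAs, none was called higher and 16 were called lower on day 7 than on day 5 in sgControl, and 14 in sgRELA, with medians of -0.37 and -0.29. RPL13A fell by 0.78 on the log2 scale in sgControl (adjusted p = 1.137e-08) and RPL4 by 0.47 (adjusted p = 1.026e-06). Of 21 other protein-coding hosts, 12 were higher and 5 lower on day 7 than on day 5 in sgControl, and 11 and 6 in sgRELA. The medians of that comparison were 0.37 and 0.28. From day 6 to day 7, 14 of these other hosts were higher and 2 lower in sgControl, and 14 and 3 in sgRELA, with medians of 0.83 and 0.68. HSPA8, a chaperone of the heat shock family, rose by 1.32 in sgControl (adjusted p = 1.081e-15) and NCL, nucleolin, by 1.22 (adjusted p = 7.982e-13), and EEF2, the translation elongation factor, fell by 0.71 (adjusted p = 3.463e-08).

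Of 17 NMD factors, 6 were lower and 1 higher on day 6 than on day 5 in each guide, and 5 in sgControl and 7 in sgRELA were higher on day 7 than on day 6, with none lower. Between day 5 and day 7 the list was split, with 4 higher and 3 lower in sgControl and 4 and 2 in sgRELA. The medians of that comparison were -0.04 and -0.02. EIF4A3 and RBM8A, parts of the exon junction complex, were among those higher on day 7 than on day 5, by 0.80 and 0.62 in sgControl (adjusted p = 1.274e-07 and 4.225e-05). From day 6 to day 7 RBM8A differed by 0.15 in sgControl, which was not called. Of 8 regulators of TOP mRNAs, 4 were higher and none lower on day 7 than on day 5 in each guide, LARP1 by 0.24 in sgControl (adjusted p = 0.00806). Of 8 enzymes that decay uncapped or nuclear RNA, 2 were lower on day 7 than on day 5 in each guide, and XRN1, the cytoplasmic exonuclease, fell by 0.52 in sgControl (adjusted p = 0.001758).

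The second question was whether the RELA guide changed the members. No member was called in the average over days, where 0.388% of all genes were (107 genes), on day 5 (0.138% of all genes), on day 6 (0.214%) or on day 7 (0.0907%), with edgeR's quasi-likelihood test. The unadjusted p was under 0.05 for 2 members in the average, 1 on day 5 (SNHG29), 3 on day 6 (SNHG12, SNHG14 and SNHG26) and none on day 7, and DESeq2 called no member in any of these. The smallest adjusted p was 0.6103 in the average. The interaction of guide and day called no member either, against 0.00363% of all genes, which is 1 gene, with 2 members at an unadjusted p under 0.05 (SNHG12 and SNHG14, unadjusted p = 0.01638 and 0.04576).

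SNHG14 and SNHG29 were the 2 members with an unadjusted p under 0.05 in the average. SNHG14 was higher in sgRELA by 0.08 on the log2 scale (95% interval 0.005 to 0.16, adjusted p = 0.6103), with all 3 samples of sgRELA above those of sgControl on day 6. SNHG29 was lower, with a log2 difference of -0.16 (interval -0.31 to -0.0009, adjusted p = 0.6514). SNHG12, named because of this count, measured 10.6, 8.58 and 9.44 CPM on day 6 of sgControl and 6.41, 5.86 and 5.96 in sgRELA, without overlap, at a log2 difference of -0.65 (interval -1.23 to -0.08, adjusted p = 0.6836). On days 5 and 7 its guides overlapped. Among the pathway lists, 1 of the 21 particle proteins, SHQ1, was called in the average, lower in sgRELA by a log2 difference of -0.29 (SE 0.06, adjusted p = 0.005035). For 15 of the 16 members listed in full, the average guide effect lay between -0.16 and 0.12, and all bounds of their 95% intervals between -0.40 and 0.26. For SNHG27 it was -0.49 with an interval from -1.67 to 0.69. A missed threshold does not show that the guides act alike, and the intervals give the sizes that these data leave possible.

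**Figure D5:**
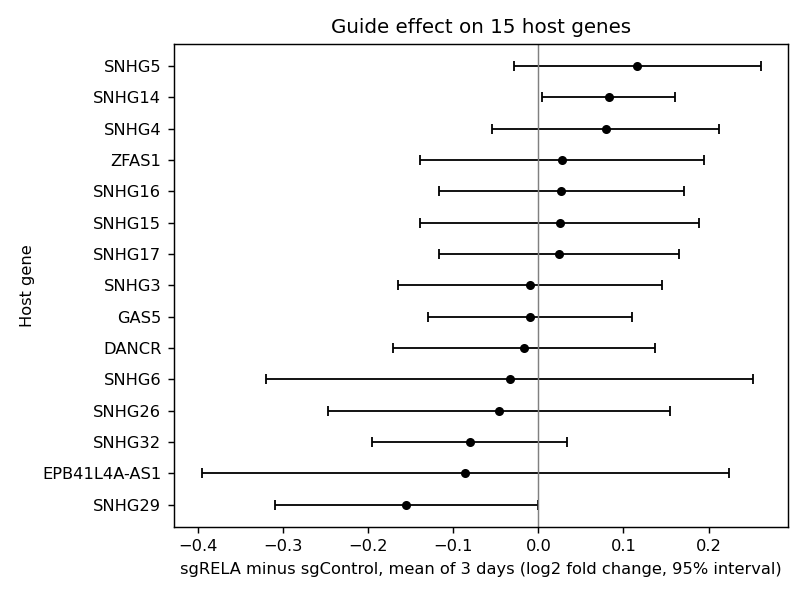
Points are the log2 fold change of sgRELA against sgControl, averaged over the 3 days, for 15 host genes, and bars are 95% intervals with 12 residual degrees of freedom. All 15 estimates lie between -0.16 and 0.12, and only the intervals of SNHG14 and SNHG29 do not include 0, before adjustment for the number of genes.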

How the data were processed

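For 36 RamDA-seq libraries the authors deposited raw, unnormalized counts per gene in a single file. Reads were handled with cutadapt 1.18 and STAR 2.7.9a and the build was GRCh38, per the submitters' processing notes, which give no roles. The counting tool, annotation, strand setting and treatment of reads with several matches are not given in the sources used here. Adding both libraries made from each RNA gave 18 sums of 18769530 to 29503934 counts. No molecular identifiers are mentioned, so intervals do not cover amplification.

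The sums were fitted in edgeR 4.0.16 (R 4.3.3) with 1 mean for each of the 6 groups, TMM normalization and filterByExpr at a minimum count of 10. P-values of its quasi-likelihood test were adjusted by Benjamini and Hochberg's procedure over 27553 genes. Standard errors were derived from the F statistic, and 95% intervals used 12 residual degrees of freedom. CPM are scaled with TMM factors. Alternatives were DESeq2 1.42.0, its size factors, no filter, fewer groups, single libraries, a replicate block, left-out libraries and replicates, and counts added over days. The method was tested on simulated data.

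The members and lists were chosen with earlier results of these data known, and comparisons that share a group are not independent. Named in full were GAS5, ZFAS1, EPB41L4A-AS1 and DANCR, plus the 12 further called members with the smallest p, and up to 4 genes per list with the smallest p in day 7 minus day 5 of sgControl. Symbols came from a gene name table. SnoRNA genes were assigned by RefSeq intervals on GRCh38.p14 without comparing strands, and promoters were matched for 28 of 32 members.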

Additional observations from a re-analysis of the deposited data

Results flagged for a closer look

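The 6 libraries of each group were searched for 1 that stood far from the rest, for the 16 members listed in full and for their summed level, 102 searches in all. A library was flagged when its gap to the nearest library exceeded Dixon's 95% critical share of the group's range. This happened 12 times. Chance flags about 1 in 20 such groups, and the 6 libraries are 3 pairs that share RNA, so they are not independent.

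Library 1 of replicate 2 of sgControl on day 5, which has the fewest detected genes of all libraries (25398), was low for EPB41L4A-AS1 (4.70 CPM, the others 15.5 to 20.3) and for SNHG26 (14.7 CPM, the others 20.8 to 24.4), and high for DANCR (76.1 CPM, the others 41.0 to 51.8). Library 1 of replicate 1 of sgControl on day 6, which has the lowest total of all (7586205 counts), was low for GAS5 (67.5 CPM, the others 118.4 to 136) and SNHG5 (44.2 CPM, the others 80.9 to 94.0) and high for SNHG29 (258 CPM, the others 150.9 to 175.4). Without these 2 libraries, 5 members instead of 3 were called between day 5 and day 6 of sgControl, the added ones being DANCR and SNHG7.

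Library 1 of replicate 1 of sgRELA on day 5 was low for SNHG15 (56.9 CPM, the others 75.7 to 82.9) and high for SNHG29 (160.8 CPM, the others 91.1 to 115.5) and SNHG26 (30.4 CPM, the others 19.3 to 21.6). Library 2 of replicate 1 of sgControl on day 6 was high for SNHG16 (98.2 CPM, the others 56.9 to 72.1). SNHG27 was high in library 2 of replicate 3 of sgControl on day 6 (4.83 CPM, the others 0 to 1.69) and in library 1 of replicate 2 of sgRELA on day 6 (2.63 CPM, the others 0 to 0.597). The cause of these values was not tested.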

How the results depend on the processing

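Each of the 16 members listed in full was followed under 14 alternatives in the 1 comparison with its smallest p, and none of these changed sign. Of these 224 values, 209 kept their side of the threshold, 13 lost the call and 2 gained it. With DESeq2, 6 members instead of 3 were called between days 5 and 6 of sgControl and 8 instead of 5 in sgRELA, and with the first library of each RNA alone 0 were called in both. That library alone gave 6 instead of 12 calls between days 5 and 7 in sgControl, 6 instead of 12 in sgRELA, and 7 instead of 12 between days 6 and 7 in sgRELA, with fewer counts per sample. Without the 2 libraries with few detected genes, the count between days 5 and 6 of sgControl was 5. Leaving out each replicate in turn gave 3 to 4 calls between days 5 and 6 in sgControl and 3 to 5 in sgRELA, 10 to 11 between days 6 and 7 in sgControl and 12 in sgRELA, and 7 to 10 and 8 to 11 between days 5 and 7. Between days 5 and 7 the calls lost without 1 replicate were those of GAS5, SNHG6, SNHG7, SNHG14, SNHG20, SNHG27, SNHG29 and EPB41L4A-AS1. Guide and interaction counts of members were 0 in all these settings.

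Over all genes, the average guide effect gave 107 calls, 222 with DESeq2, 211 without a filter, 47 with the first and 63 with the second library. For days 5, 6 and 7 the guide gave 38, 59 and 25 calls, DESeq2 73, 126 and 54, the first library 15, 15 and 13, and the interaction 1 call, 17 with DESeq2 and 24 without a filter. Without a filter days 5 and 7 gave 68 and 55, the second library gave 22 and 35 on days 5 and 6, and day 6 fitted alone gave 34. Between days 5 and 6, 2445 genes in sgControl and 1904 in sgRELA became 430 and 196 with the first library and 1374 and 1183 with the second, 1251 in sgControl with its own groups alone and 2898 in sgRELA with DESeq2. With the first library, days 6 and 7 gave 1879 in place of 4012 and 961 in place of 3368 (689 higher, 272 lower), and days 5 and 7 820 in place of 3585 and 669 in place of 3420. The second library gave 2628 for days 6 and 7 of sgControl and 2222 for days 5 and 7 of sgRELA. Leaving out replicate 3 of day 5 or replicate 2 of day 6 gave 1243 and 1242 between days 5 and 6 of sgRELA, leaving out the latter 38 for the guide on day 6, and leaving out replicate 1 of day 7 16 for the guide on day 7. The interaction ranged from 0 to 3 with 1 replicate or the 2 libraries left out.

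No pairing of the samples by replicate number was detected. Over 15514 genes, the deviations of same-numbered samples correlated between -0.11 and 0.06 in 45 pairs, and 15 of 45 correlated best with their own number. A shared origin whose effect is smaller than the noise of the libraries would be missed by this check. With a replicate block, 11 members were called between days 5 and 7 of sgControl (EPB41L4A-AS1 lost) and 10 in sgRELA (SNHG7 and SNHG20 lost), and the other counts did not move. Depth limits SNHG9, SNHG18, SNHG19, SNHG22, SNHG25 and SNHG27 most.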
